A study of Homo sapiens with 33 samples.

Results

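The genes described here are 10 claudins, *CLDN1*, *CLDN3*, *CLDN4*, *CLDN6*, *CLDN7*, *CLDN9*, *CLDN10*, *CLDN11*, *CLDN12* and *CLDN16*, out of 23 claudin genes and 29744 genes in the deposited tables. They were taken by symbol, and the set was chosen by a measured value, the loss of *CLDN6* RNA in the OVCAR3 ResA line, so the comparison of OVCAR3 ResA with OVCAR3 is given below as a description with no test. Gene expression comes from 33 poly(A) RNA libraries, 3 for each of 11 cell lines of human high-grade serous ovarian carcinoma (HGSOC). The platinum-sensitive lines OVCAR3 and OVCAR4 each gave rise to resistant derivatives named ResA and ResB, which the study raised separately by repeated pulses of cisplatin at rising doses, with no drug in the medium afterwards. PEA1 and PEA2 came from the same patient, and PEO1, PEO4 and PEO6 from another. PEA1 and PEO1 were platinum-sensitive and PEA2, PEO4 and PEO6 platinum-resistant in the study's text, since the sample labels give the line and not its role. Each resistant line is a single line, so a difference from its sensitive counterpart belongs to that line. The labels do not say whether the replicates of a line were separate cultures, and p-values then measure only the spread between these libraries.

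Claudins are small tetraspan membrane proteins that polymerise into the strands of tight junctions and set which ions and solutes pass between epithelial cells. *CLDN1*, *CLDN3*, *CLDN4* and *CLDN7* encode sealing claudins of most epithelia, and claudin-7 also binds the adhesion protein EPCAM outside the junction. *CLDN6* is an embryonic claudin that is largely silent in adult tissue and returns in ovarian and germ cell tumours, where it is used as a target for antibodies and engineered T cells. *CLDN9* is its close paralogue. *CLDN10* and *CLDN16* encode claudins that form or regulate cation pathways in the kidney, *CLDN11* encodes the claudin of myelin and of the testis barrier, and *CLDN12* encodes a broadly expressed, atypical member. *CLDN3* and *CLDN4* are the claudins most often reported as high in ovarian carcinoma.

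Positions are from NCBI RefSeq on GRCh38.p14. *CLDN9* (chr16:3012923-3014505) ends 206 bases before *CLDN6* (chr16:3014712-3018183). *CLDN3* (chr7:73768997-73770270) and *CLDN4* (chr7:73830996-73832690) are 60725 bases apart with no other gene of the count table between them. *CLDN1* (chr3:190305707-190322446) lies on the opposite strand within the outer span of *CLDN16* (chr3:190290361-190412138). *CLDN11* (chr3:170418868-170434691), *CLDN12* (chr7:90403461-90415954), *CLDN10* (chr13:95433755-95579759) and *CLDN7* (chr17:7259903-7263213) stand apart from the rest. Promoter windows, from 250 bases before to 50 bases after an annotated start, were in the RefSeq table for 9 of the 10 genes. The windows of *CLDN6*, which was lost in OVCAR3 ResA, and of *CLDN3*, *CLDN4* and *CLDN7*, which were near 0 in PEA1 and high in PEA2, are printed here, 5′ to 3′ on the gene's own strand. Capitals mark CACCTG or its reverse complement CAGGTG, the E-box bound by the SNAI and ZEB repressors of epithelial genes. The windows are chr16:3018134-3018433 (minus strand) for *CLDN6*, chr7:73770221-73770520 (minus) for *CLDN3*, chr7:73830746-73831045 (plus) for *CLDN4* and chr17:7262429-7262728 (minus) for the downstream of the 2 annotated starts of *CLDN7*.
CLDN6: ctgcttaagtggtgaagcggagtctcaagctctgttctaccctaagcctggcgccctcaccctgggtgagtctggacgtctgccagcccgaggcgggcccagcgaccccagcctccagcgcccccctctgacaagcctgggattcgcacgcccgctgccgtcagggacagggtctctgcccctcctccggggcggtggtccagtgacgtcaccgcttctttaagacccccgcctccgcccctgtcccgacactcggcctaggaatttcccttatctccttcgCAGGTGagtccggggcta
CLDN3: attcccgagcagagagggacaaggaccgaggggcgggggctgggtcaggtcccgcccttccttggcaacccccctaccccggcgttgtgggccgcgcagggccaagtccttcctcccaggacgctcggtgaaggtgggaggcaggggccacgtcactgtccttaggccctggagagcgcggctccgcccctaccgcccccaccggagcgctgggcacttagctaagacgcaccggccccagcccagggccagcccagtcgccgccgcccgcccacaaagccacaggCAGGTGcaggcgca
CLDN4: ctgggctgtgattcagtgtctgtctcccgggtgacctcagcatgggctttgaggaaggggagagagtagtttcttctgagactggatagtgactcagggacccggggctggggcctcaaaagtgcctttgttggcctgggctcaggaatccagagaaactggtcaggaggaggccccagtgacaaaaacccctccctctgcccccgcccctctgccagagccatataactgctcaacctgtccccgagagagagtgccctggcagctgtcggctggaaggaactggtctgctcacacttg
CLDN7: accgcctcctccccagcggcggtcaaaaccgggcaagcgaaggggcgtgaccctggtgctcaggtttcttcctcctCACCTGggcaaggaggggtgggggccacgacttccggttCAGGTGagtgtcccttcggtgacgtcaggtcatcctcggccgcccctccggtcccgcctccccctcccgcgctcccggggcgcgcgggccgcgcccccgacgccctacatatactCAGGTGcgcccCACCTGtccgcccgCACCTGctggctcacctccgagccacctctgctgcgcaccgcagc
The *CLDN7* window held 5 such E-boxes, *CLDN6* and *CLDN3* held 1 each, at 32 and 36 bases after the start, and *CLDN4* held 0, as did the window at the upstream start of *CLDN7*. Among the other claudins, whose windows are not printed, the downstream start of *CLDN16* held 1, at 20 bases after the start. The windows of *CLDN1*, *CLDN10*, *CLDN11* and *CLDN12* and of the upstream start of *CLDN16* held 0. Of all 35116 promoter windows of this length in the table, 20.6% held at least 1. The 4 printed windows held no TATAAA on either strand, which 11.5% of all windows did. These are letters in a window, and binding was not measured.

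The libraries held 18058985 to 43394009 estimated counts, so a claudin at 0 in 3 libraries of a line was read against about 3 counts in the line as a whole, a limit that covers counting error only. Mitochondrial rRNA took 1.12% to 14.8% of the counts of a library and was highest in OVCAR4 (10.6% ± 4.94, SD, n = 3). The nearest library by correlation was of the same line for 31 of 33 libraries, and the exceptions were the first replicates of both OVCAR4 resistant lines, each the other's nearest library. Epithelial carcinoma markers were checked in every line. At least 9 of 10 (*EPCAM*, *CDH1*, *KRT7*, *KRT8*, *KRT18*, *KRT19*, *PAX8*, *MUC16*, *WT1*, *SOX17*) reached 1 TPM in the mean of 10 lines, and 7 of 10 did in PEA1, where the 10 markers summed to 405 to 448 TPM against 2492 to 8144 TPM in the libraries of the other lines. Of 13 markers of fibroblasts, endothelium and white blood cells, 2 or 3 reached 1 TPM in any line. TPM, transcripts per 1000000, is a length-corrected level, and in bulk RNA fewer cells expressing a gene and less RNA per cell cannot be told apart.

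Claudin RNA as a whole was lowest in OVCAR3 ResA and highest in PEA2, each a resistant line. This total includes *CLDN6*, whose loss in OVCAR3 ResA chose the set and which was 170 ± 22.6 of 591 ± 36.9 TPM in OVCAR3. The 23 claudin genes summed to 261 ± 18.2 TPM (SD, n = 3) in OVCAR3 ResA and to 2733 ± 107 TPM in PEA2, with the other 9 lines between 395 and 855 TPM. The 10 genes made up 89.8% to 99.8% of that sum. *CLDN6* had the highest mean share of claudin TPM in OVCAR3 (28.8% ± 4.01, with *CLDN3* next at 23.0% ± 4.67) and in OVCAR3 ResB (27.1% ± 4.56, with *CLDN3* at 22.9% ± 12.3). *CLDN1* led in the 3 OVCAR4 lines, in PEA1, PEA2 and PEO1, *CLDN7* in OVCAR3 ResA and PEO4, and *CLDN3* in PEO6. In PEO1 the leading pair, *CLDN1* and *CLDN7*, stood at 27.4% ± 8.03 and 27.0% ± 2.28, and in PEO6 *CLDN3* and *CLDN7* stood at 23.4% ± 4.81 and 21.0% ± 1.45. The first and second claudin did not differ beyond their spread in OVCAR3, OVCAR3 ResB, PEO1 and PEO6. The largest single share was *CLDN1* in PEA2, at 74.5% ± 0.0983. Of the 13 other claudin genes, 8 stayed under 1 TPM in every line, and *CLDN8* (31.1 ± 2.68 TPM in PEO6) and *CLDN23* (20.8 ± 1.87 TPM in PEO6) were the highest.

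**Figure D1:**
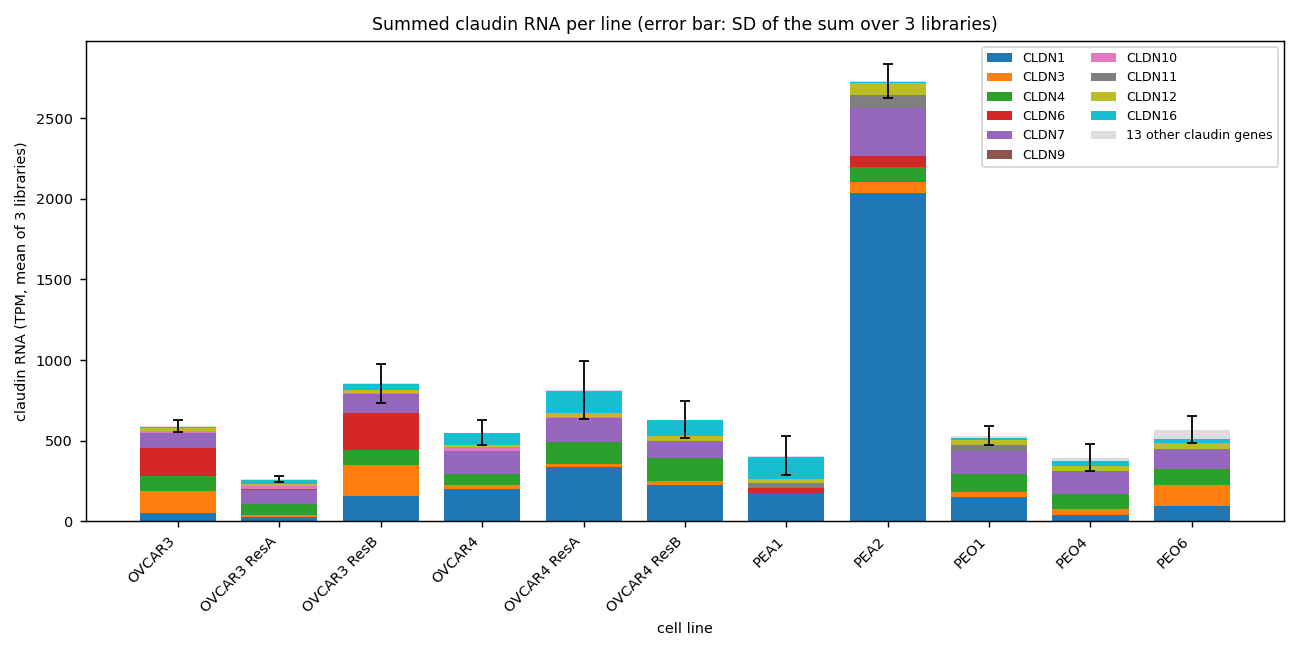
Summed claudin RNA in each line in TPM (mean of 3 libraries, error bar the SD of the sum), stacked by gene, with the 13 other claudin genes in grey. PEA2 stands at 2733 TPM, most of it *CLDN1*, and OVCAR3 ResA at 261 TPM, with no visible *CLDN6*.

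*CLDN6* had an on or off distribution over the lines. OVCAR3 read 144, 181 and 185 TPM in its 3 libraries, OVCAR3 ResB 220, 237 and 229 TPM, PEA2 72.2, 68.2 and 59.9 TPM, and PEA1 29.5, 21.6 and 37.0 TPM. OVCAR3 ResA read 0, 0 and 0.0881 TPM, which were 2 counts over the line against 10559 in OVCAR3. All 3 libraries of OVCAR3 ResA lay below all 6 of its parent and its sister line, and this loss is the value that chose the set. OVCAR4, its resistant lines, PEO1 and PEO4 also had 0 to 4 counts per library, and PEO6 read 0.120, 1.41 and 0.964 TPM (3, 33 and 22 counts). In the order of the line means the 4 highest lines were separate from each other and from the rest, with no library of one reaching the next, and the 7 lower lines overlapped their neighbours.

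**Figure D2:**
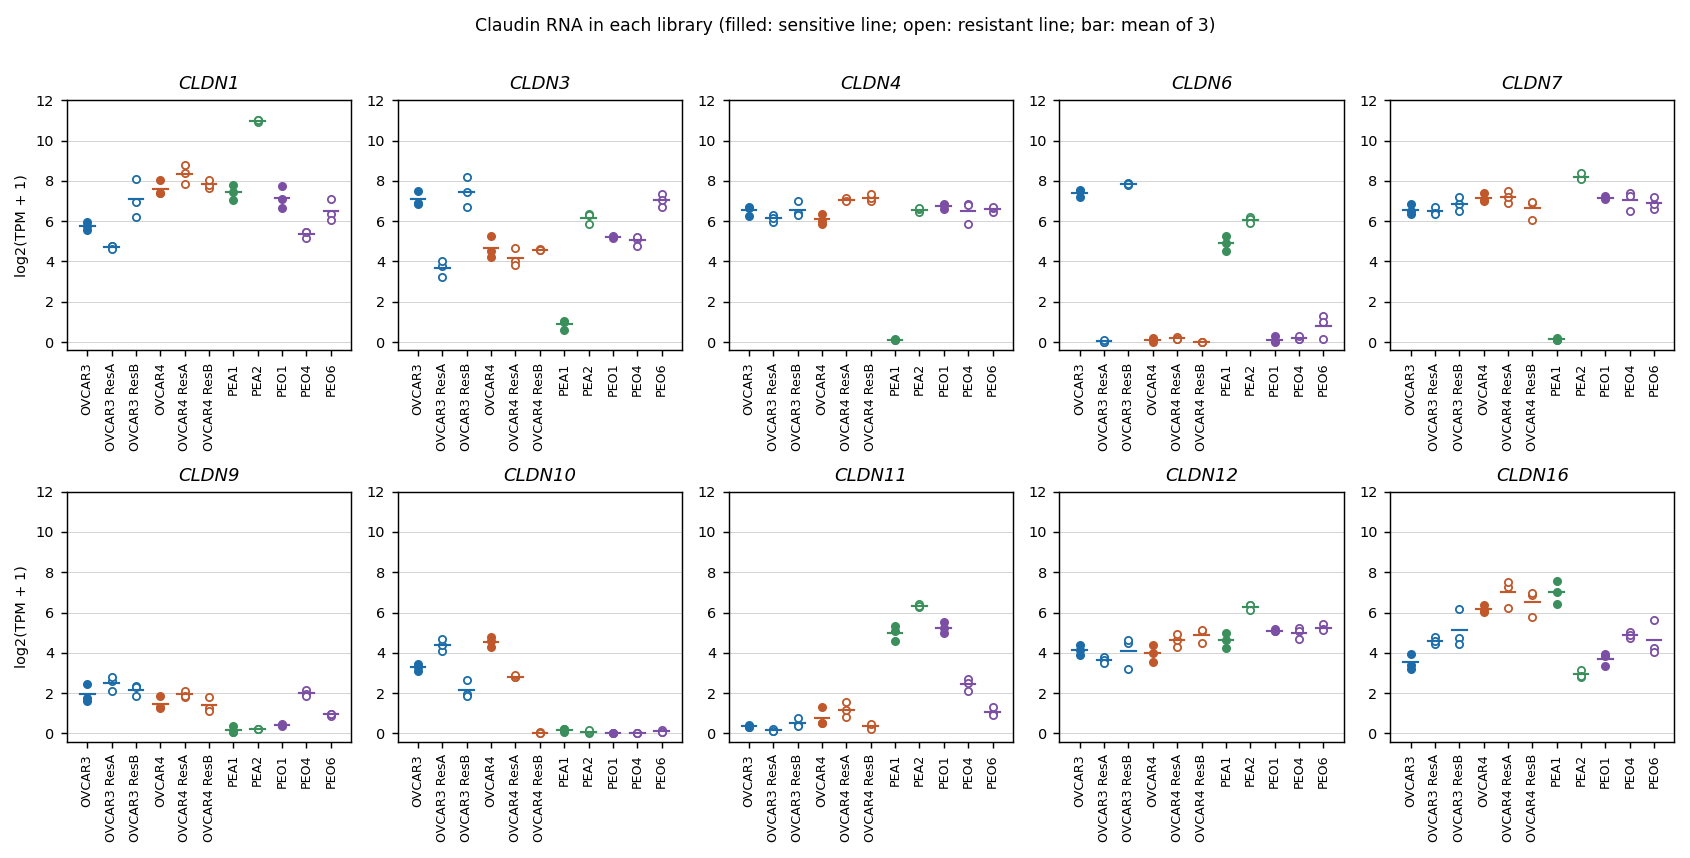
Level of each claudin in every library as log2(TPM + 1), 1 panel per gene and 1 column per line, with filled points for the sensitive lines, open points for the resistant lines and a bar at the mean of the log2 values. *CLDN6* is high in OVCAR3, OVCAR3 ResB, PEA1 and PEA2 and near 0 in OVCAR3 ResA, while *CLDN4* and *CLDN7* are near 0 in PEA1 and no other line.

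In OVCAR3 ResA against OVCAR3, the comparison that chose the set, the *CLDN6* count was 5958-fold lower, with a 95% Poisson interval of 1649 to 49197 that covers counting error only. *CLDN3* fell beside it, from 114, 118 and 178 TPM to 8.32, 12.8 and 15.0 TPM, a log2 fold change of -3.65 ± 0.13 (SE), and *CLDN1* from 61.6, 52.4 and 46.3 TPM to 26.2, 25.9 and 23.3 TPM (-1.22 ± 0.11). *CLDN4* and *CLDN12* were also lower, by smaller amounts (-0.53 ± 0.11 and -0.67 ± 0.13). *CLDN10* and *CLDN16* went the other way, at 1.05 ± 0.16 and 1.01 ± 0.14. In all, 7 of 10 genes were past an adjusted p of 0.05 here, 2 higher and 5 lower, beside 44.9% of all genes tested (22.0% higher and 22.9% lower), and nothing is read from that count. *CLDN9*, next to *CLDN6*, was at 2.97 ± 1.34 TPM in OVCAR3 and 4.77 ± 1.39 TPM in OVCAR3 ResA. Among the 5 nearest genes of the count table on each side of *CLDN6*, *KREMEN2* was at 2.68 TPM in OVCAR3 and 1.25 TPM in OVCAR3 ResA, *TNFRSF12A* at 109 and 178 TPM, and *LINC00514* at 0 and 0.0181 TPM, and the log2 fold changes of the other 7, *CLDN9* included, lay between -0.43 and 0.57. No gene beside *CLDN6* thus fell with it to near 0. The TPM scale moved the median of all genes by 0.11 (log2) relative to the count scale in this comparison. The 10 epithelial markers summed to 6112 to 8144 TPM in the libraries of OVCAR3 and 3722 to 4972 TPM in those of OVCAR3 ResA. Of these 10, 3 were higher and 6 lower past an adjusted p of 0.05, beside 22.0% and 22.9% of all genes tested. *KRT8* was at 2441 ± 183 and 732 ± 77.8 TPM, *KRT18* at 2424 ± 702 and 379 ± 135 TPM, and *WT1* at 60.3 ± 2.91 and 2.09 ± 0.459 TPM. *EPCAM* was at 551 ± 56.8 and 548 ± 81.7 TPM, and all 10 stayed above 1 TPM in the mean of both lines. The sum of the 13 markers of other cells was 8.33 to 11.9 TPM in OVCAR3 and 13.4 to 18.0 TPM in OVCAR3 ResA. The part of these markers in the claudin differences was not tested.

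**Figure D3:**
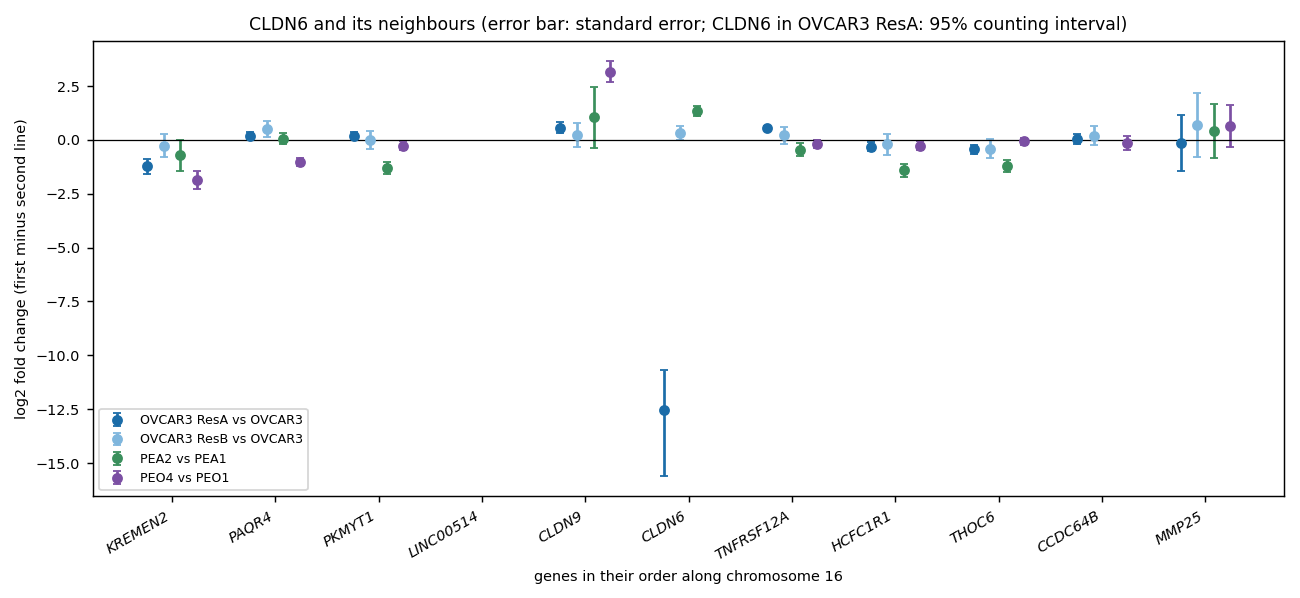
log2 fold change of *CLDN6* and of the nearest genes in their order along chromosome 16, in 4 comparisons of a resistant with a sensitive line, with the standard error as bar, or the 95% counting interval for *CLDN6* in OVCAR3 ResA. Genes with no adjusted p, and *CLDN6* in PEO4 against PEO1, where both lines were at the floor, have no point, nor does *CCDC64B* in PEA2, since PEA1 was at 0. *CLDN6* in OVCAR3 ResA is the 1 point below -10, and *CLDN9* beside it is at 0.57.

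OVCAR3 ResB was raised from the same parent. *CLDN6* was not called (log2 fold change 0.33 ± 0.34, adjusted p = 0.753, DESeq2), although its TPM values did not overlap, and nor were *CLDN3*, *CLDN4*, *CLDN7*, *CLDN9*, *CLDN11* and *CLDN12*. The 3 genes called of 10 tested, beside 7.67% of all genes tested (4.10% higher and 3.57% lower), were *CLDN1*, *CLDN16* and *CLDN10*. *CLDN1* read 74.0, 121 and 273 TPM against 61.6, 52.4 and 46.3 TPM and rose by 1.24 ± 0.38 (adjusted p = 0.0182, DESeq2). *CLDN16* read 25.3, 21.0 and 70.8 TPM against 14.4, 8.24 and 9.71 TPM and rose by 1.56 ± 0.38 (adjusted p = 0.00129). In both genes replicate 3 of OVCAR3 ResB was the highest library, and the lines did not overlap. That library held 1.12% mitochondrial rRNA, the lowest of all 33, against 5.97% and 8.88% in replicates 1 and 2, and 32493449 counts against 18058985 and 22732730. Without replicate 3 of both lines the log2 fold changes were 0.84 for *CLDN1* (adjusted p = 0.0363, DESeq2) and 1.13 for *CLDN16* (adjusted p = 0.00323). *CLDN10* fell by 1.45 on the log2 scale, from 7.64, 9.80 and 8.79 TPM to 5.19, 2.89 and 2.68 TPM (adjusted p = 0.0154). Without replicate 2 of both lines, 0 of the 3 were called, and edgeR called 0 of them with all libraries (adjusted p = 0.153 for *CLDN1*, 0.0637 for *CLDN16* and 0.109 for *CLDN10*). The *CLDN10* call was also lost without replicate 3 (adjusted p = 0.0792). Both OVCAR3 resistant lines were set against the same OVCAR3 libraries.

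Between the pair of OVCAR3 resistant lines, 3 of the 9 genes other than *CLDN6* were past the threshold, 2 higher and 1 lower in ResB, beside 13.5% of all genes tested (7.47% higher and 6.04% lower). *CLDN6*, given without a test because OVCAR3 ResA chose it, was 7471-fold higher in OVCAR3 ResB (95% Poisson interval 2068 to 61686). *CLDN3* was at 296, 171 and 102 TPM in OVCAR3 ResB against 8.32, 12.8 and 15.0 TPM in OVCAR3 ResA, higher by 3.94 ± 0.48 (adjusted p = 2.16e-14, DESeq2). *CLDN1* was higher by 2.45 ± 0.38 (adjusted p = 3.44e-09), and *CLDN10* was lower (-2.50 ± 0.45, adjusted p = 7.04e-07), with 3.59 ± 1.40 TPM against 20.2 ± 4.35 TPM. No library of one line reached those of the other in *CLDN3*, *CLDN1* and *CLDN10*, nor in *CLDN6*, where this follows from the choice of the set. The share of all genes with no such overlap is not given, so nothing is read from this.

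The OVCAR4 family was marked by *CLDN10*. OVCAR4 read 18.6, 23.0 and 26.4 TPM, OVCAR4 ResA 5.87, 5.93 and 6.47 TPM, and OVCAR4 ResB 0, 0.0496 and 0.0234 TPM. The 3 lines did not overlap, and ResA lay between the parent and ResB. In OVCAR4 ResA *CLDN10* was the 1 gene of 9 tested that was called, beside 11.9% of all genes tested (6.68% higher and 5.22% lower), and fell by 2.41 on the log2 scale (SE 0.37, adjusted p = 6.97e-09, DESeq2). OVCAR4 ResB had 3 *CLDN10* counts in all against 2722, which were 1265-fold lower (95% Poisson interval 433 to 6133, adjusted p = 2.90e-27). The sister lines differed too, with a 243-fold lower count in ResB than in ResA (interval 83.3 to 1180, adjusted p = 5.65e-17). *CLDN10-AS1* (chr13:95479444-95533910), which lies within the span of *CLDN10*, was at 0.343 ± 0.136, 0.432 ± 0.187 and 0.108 ± 0.112 TPM in OVCAR4, ResA and ResB. It was not called in OVCAR4 ResB against OVCAR4 and had no adjusted p in the other comparisons of this family. Reads from any stretch that both genes cover cannot be told apart, since the strand setting of the counting was not given in the sources used here. Both OVCAR4 resistant lines were set against the same OVCAR4 libraries.

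The second gene called in OVCAR4 ResB against OVCAR4, of 9 tested and beside 17.9% of all genes tested (9.09% higher and 8.77% lower), was *CLDN7*. It read 66.2, 118 and 123 TPM against 169, 126 and 132 TPM, and fell by 1.05 on the log2 scale (SE 0.31, adjusted p = 0.00634, DESeq2). The lines did not overlap, but the call was lost without replicate 2 (adjusted p = 0.213) and without replicate 3 (adjusted p = 0.279). *CLDN4* had the opposite look on the TPM scale, at 127, 140.5 and 162 TPM in ResB and 132, 141 and 125 TPM in ResA against 64.1, 80.7 and 57.9 TPM in OVCAR4, with no overlap, but was not called in either comparison (adjusted p = 0.334 and 0.423). In these comparisons TPM moved the median of all genes by 0.50 and 0.47 (log2) against the count scale, and mitochondrial rRNA was 10.6% ± 4.94 of the counts in OVCAR4, 4.44% ± 4.14 in ResA and 5.98% ± 6.15 in ResB, where replicate 1 of each resistant line was the highest. The part of either in these differences was not tested. On the count scale, *CLDN4* stood 0.46 ± 0.33 higher in ResA and 0.52 ± 0.35 higher in ResB. Replicate 1 of OVCAR4 was the lowest of its line in mitochondrial rRNA, at 5.18% against 14.8% and 11.96% in replicates 2 and 3. Replicates 2 and 3 held 2.02% and 2.09% in ResA and 2.47% and 2.39% in ResB. Leaving out replicate 1 thus widened the gap in mitochondrial rRNA between OVCAR4 and its resistant lines. The part of that gap in the calls that follow was not tested. Replicate 1 also held the libraries of ResA and ResB that stood apart from their lines. Without replicate 1, 4 genes were called in each comparison in place of 1 and 2. In ResA these were *CLDN3* (-1.77, adjusted p = 5.43e-09) and *CLDN10*, lower, and *CLDN1* and *CLDN16*, higher. In ResB these were *CLDN3* (-1.19, adjusted p = 9.68e-05), *CLDN7* and *CLDN10*, lower, and *CLDN12*, higher.

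Between OVCAR4 ResB and OVCAR4 ResA, 5 of 9 genes tested were lower in ResB and 0 higher, beside 32.8% of all genes tested that were called, 16.2% higher and 16.5% lower. Apart from *CLDN10* these were *CLDN11* (0.280 ± 0.116 against 1.32 ± 0.591 TPM, -2.25 ± 0.58, adjusted p = 6.49e-04, DESeq2), *CLDN7* (-0.61 ± 0.13), *CLDN1* (-0.56 ± 0.15) and *CLDN16* (-0.51 ± 0.10). The libraries of the lines overlapped in *CLDN7*, *CLDN1* and *CLDN16*. Same-numbered libraries deviated together in this comparison, and without the replicate block 2 of the 5, *CLDN10* and *CLDN11*, were called. Without replicate 2 the count was also 2, *CLDN7* and *CLDN10*. Of 9 tested partners of the EPCAM and claudin-7 complex 7 were lower in ResB, among them the protease inhibitor *SPINT1*, at 32.9 ± 12 against 62.6 ± 19.1 TPM (-0.98 ± 0.10, adjusted p = 1.43e-19), with libraries that overlapped. Of the 10 epithelial markers 5 were lower and 0 higher, led by *KRT19* (-3.52 ± 0.08), and their part in the claudin differences was not tested.

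**Figure D4:**
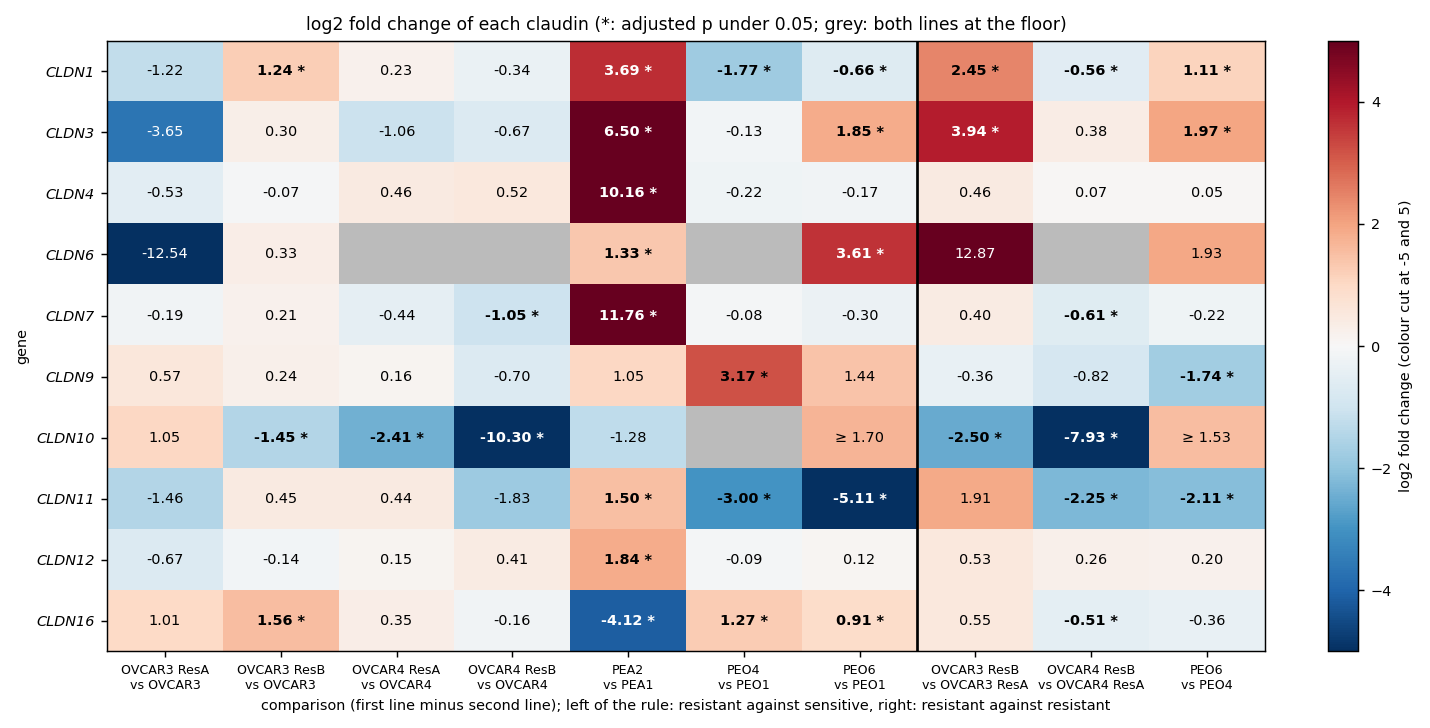
log2 fold change of each claudin in the 10 comparisons, first line minus second line, with an asterisk where the DESeq2 adjusted p passed the threshold, grey where both lines were at the floor of counts and a ≥ sign where one line had 0 counts. The first column and *CLDN6* in the eighth carry no test because they chose the set. *CLDN6* and *CLDN10* with 1 to 3 counts in a line are drawn at the ratio of counts. PEA2 against PEA1 holds 7 higher genes and 1 lower, and *CLDN10* carries an asterisk in 5 of the 6 comparisons within the OVCAR3 and OVCAR4 families.

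PEA2 against PEA1 had 7 claudins higher and 1 lower of 10 tested, beside 47.0% of all genes called in either direction, 23.3% higher and 23.8% lower. The median log2 fold change was 1.67 over the 10 genes and -0.02 over all genes tested. *CLDN7* read 285, 272 and 332 TPM in PEA2 and 0.155, 0.0770 and 0.0547 TPM (7 counts in all) in PEA1, a log2 fold change of 11.76 ± 0.62 (adjusted p = 1.74e-78, DESeq2). *CLDN4* read 85.5, 97.6 and 97.9 TPM against 0.0596, 0.119 and 0.0840 TPM (10.16 ± 0.58, adjusted p = 1.80e-67). *CLDN3* read 56.1, 79.9 and 78.6 TPM against 0.537, 1.06 and 1.01 TPM (6.5 ± 0.33, adjusted p = 1.99e-84). These 3 sealing claudins were at or near 1 TPM or below in every PEA1 library, and every PEA2 library lay far above them. *ABHD11*, next to *CLDN3* on the side away from *CLDN4*, was also higher in PEA2, at 42.2 ± 5.22 against 7.09 ± 1.12 TPM (2.68 ± 0.30, adjusted p = 4.92e-18).

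*CLDN1* was present in PEA1 and rose further, from 173, 131 and 223 TPM to 1954, 2042 and 2109 TPM (3.69 ± 0.21, adjusted p = 4.13e-66). *CLDN12* (1.84 ± 0.23, adjusted p = 9.61e-15), *CLDN11* (1.5 ± 0.24, adjusted p = 7.28e-09) and *CLDN6* (1.33 ± 0.24, adjusted p = 1.43e-07) rose by 2.52-fold to 3.57-fold, and no PEA1 library reached a PEA2 library. *CLDN16* alone fell, from 129, 85.8 and 192 TPM to 6.06, 7.74 and 6.18 TPM (-4.12 ± 0.27, adjusted p = 3.61e-52). *CLDN1* and *CLDN16* thus moved in opposite directions in this pair although they overlap in the genome. Whether counting used the strand was not given in the sources used here, so reads from any stretch that both genes cover cannot be told apart. *CLDN9* and *CLDN10*, each at or below 0.289 TPM in all 6 libraries, were not called.

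Other junction genes were counted in the same pair from lists of fixed membership, all chosen with earlier results of these data known. Over all genes tested in this pair, 23.3% were higher and 23.8% lower. All 9 tested of 10 partners of the EPCAM and claudin-7 complex were higher in PEA2 (median log2 fold change 4.45). They included the membrane proteases and inhibitors that control EPCAM cleavage, with *ST14* (matriptase) at 0.235 ± 0.123 TPM in PEA1 and 90.4 ± 10.6 in PEA2 (8.79 ± 0.36, adjusted p = 1.92e-127), *SPINT1* at 0.478 ± 0.198 and 142 ± 9.0 TPM, and *PRSS8* (prostasin) at 0.0186 ± 0.0161 and 62.8 ± 10.7 TPM. *EPCAM* itself was at 14 ± 1.2 and 575 ± 36.5 TPM. Of 11 tested membrane proteins of the tight junction other than claudins, 8 were higher, among them *MARVELD3* (a relative of occludin and tricellulin, 7.17 ± 0.47, adjusted p = 3.46e-51), and 2 were lower, the adhesion molecule *JAM2* (13.3 ± 2.19 TPM in PEA1, 0.0185 ± 0.0162 in PEA2) and *ILDR2*, a protein of junctions between cell corners (11.2 ± 6.59 and 0.00231 ± 0.004 TPM). Of 19 scaffold and polarity genes, 7 were higher and 5 lower (median 0.08), with *TJP3* (ZO-3) at 6.24 ± 0.41 (adjusted p = 1.68e-49). Of 12 adherens junction and desmosome genes, 8 were higher and 0 lower, led by *CDH1* (E-cadherin), at 1.26 ± 0.985 and 204 ± 26.2 TPM (7.81 ± 0.38, adjusted p = 6.43e-94).

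Among 20 tested regulators of junction genes, 12 were higher and 5 lower in PEA2, beside 23.3% and 23.8% of all genes tested. *ZEB1*, a repressor that binds the E-box printed above, was at 20.5 ± 5.75 TPM in PEA1 and 0.133 ± 0.0426 in PEA2 (-7.13 ± 0.33, adjusted p = 1.98e-101, DESeq2), and its mean was at or below 0.133 TPM in each of the 10 lines other than PEA1. The epithelial splicing factor *ESRP1* was at 0.00769 ± 0.0133 and 107 ± 10.8 TPM, and the epithelial ETS factor *EHF* was listed at 0 in the 3 PEA1 libraries and at 213, 183 and 187 TPM in PEA2. Of the 10 epithelial markers, 8 were higher and 0 lower (median 5.87), for example *KRT7*, at 2.95 ± 0.313 and 1186 ± 119 TPM, while *PAX8*, at 74.9 ± 12.7 and 61.7 ± 8.68 TPM, and *WT1* were not called. Of 13 markers of other cells, 4 were higher and 2 lower of 9 tested (median log2 fold change 2.81). The sum of the 13 was 79.9 to 139 TPM in the PEA1 libraries and 58.4 to 63.5 TPM in PEA2. *COL1A1*, a fibroblast and mesenchymal collagen, went against the median of these markers, at 88.4 ± 20.3 TPM in PEA1 and 0.879 ± 0.254 in PEA2. *DCN* and *COL3A1*, also of fibroblasts, and *CD3E*, of T cells, were listed at 0 in all 6 libraries. The claudins called in this pair, apart from *CLDN16*, rose as 8 of the 10 epithelial markers did. *ZEB1* and *COL1A1* fell, while 12 regulators and 4 markers of other cells were higher. The part of these genes in the claudin change was not tested.

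**Figure D5:**
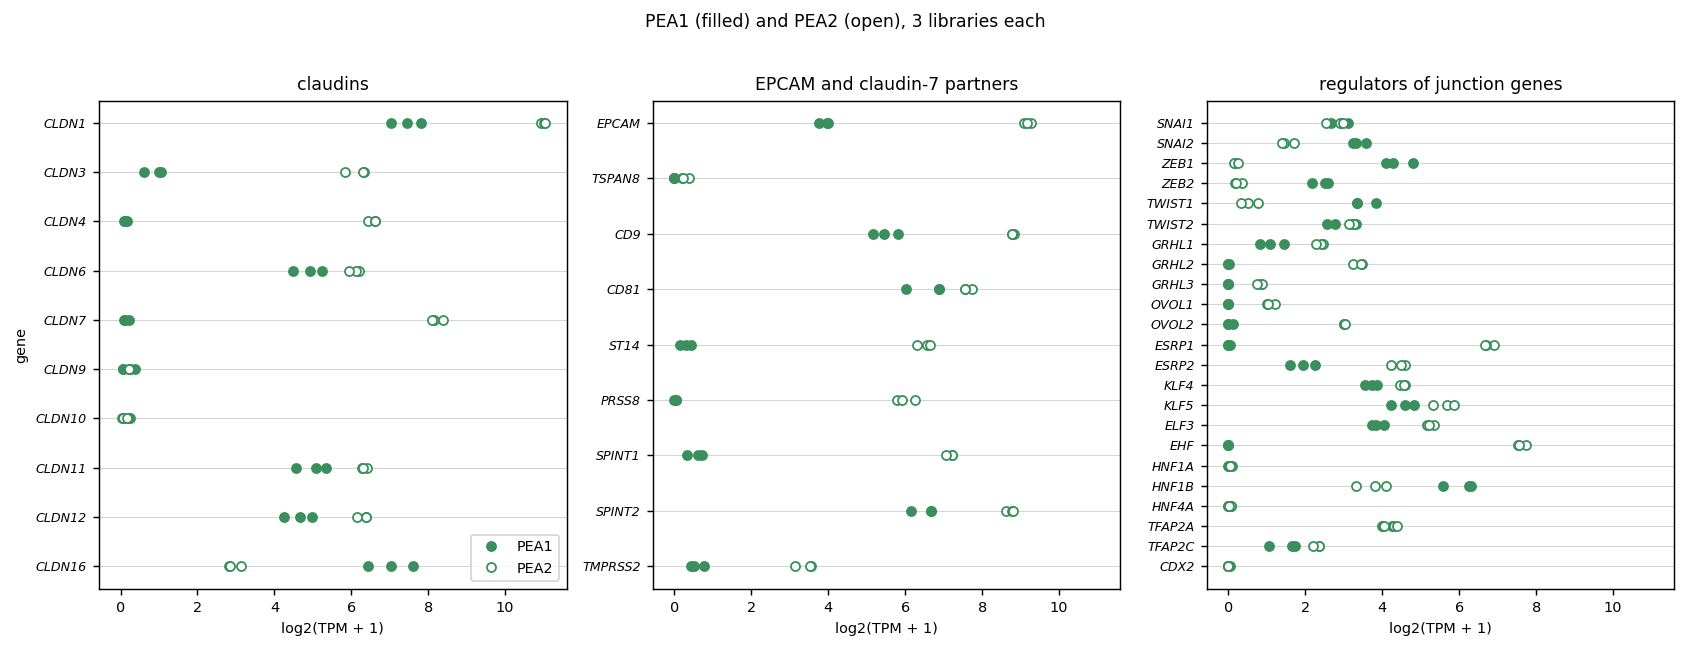
Levels in the 3 PEA1 libraries (filled) and the 3 PEA2 libraries (open) as log2(TPM + 1) for the claudins, 9 of the 10 partners of the EPCAM and claudin-7 complex and the regulators. *CLDN3*, *CLDN4*, *CLDN7*, *ST14*, *PRSS8*, *SPINT1*, *ESRP1* and *EHF* lie near 0 in PEA1 and high in PEA2, and *CLDN16* and *ZEB1* lie the other way.

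In the PEO family *CLDN11* fell in both resistant lines. It read 44.6, 30.6 and 36.2 TPM in PEO1, 5.62, 4.65 and 3.32 TPM in PEO4 and 1.02, 0.920 and 1.45 TPM in PEO6. The 3 lines did not overlap, with PEO4 between the others. The log2 fold change was -3.00 ± 0.20 in PEO4 (adjusted p = 6.41e-50, DESeq2) and -5.11 ± 0.27 in PEO6 (adjusted p = 2.73e-75), and PEO6 was lower than PEO4 (-2.11 ± 0.43, adjusted p = 2.61e-05). Of the 10 genes nearest to *CLDN11*, 6 were lower and 0 higher in PEO4, and 7 were lower and 0 higher in PEO6, of 7 with an adjusted p in each, beside 16.7% and 20.3% lower over all genes tested, and nothing is read from so few genes. In PEA2, where *CLDN11* was higher, 4 of 8 of these neighbours with an adjusted p were higher and 2 lower, beside 23.3% and 23.8% over all genes tested.

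PEO4 differed from PEO1 in 4 of 9 claudins tested, beside 33.3% of all genes tested (16.6% higher and 16.7% lower). *CLDN9* read 3.39, 2.93 and 2.61 TPM against 0.296, 0.338 and 0.369 TPM and rose by 3.17 ± 0.48 (adjusted p = 4.24e-10, DESeq2). *CLDN6*, 206 bases away, had 9 counts in PEO4 and 5 in PEO1, so both were at the floor. *CLDN1* fell, from 135, 98.0 and 211 TPM to 42.9, 35.0 and 43.8 TPM (-1.77 ± 0.17, adjusted p = 5.69e-24), and *CLDN16* rose, from 13.5, 9.05 and 14.6 TPM to 32.2, 26.1 and 29.0 TPM (1.27 ± 0.18, adjusted p = 2.48e-11). The locus, where the genes overlap, again held opposite directions. *CLDN3*, *CLDN4*, *CLDN7* and *CLDN12* were not called, with log2 fold changes from -0.22 to -0.08.

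PEO6 differed from PEO1 in 5 of 9 claudins tested, beside 41.4% of all genes tested (21.2% higher and 20.3% lower). *CLDN3* read 105, 162 and 129 TPM against 35.6, 36.9 and 34.7 TPM and rose by 1.85 ± 0.22 (adjusted p = 9.27e-16, DESeq2). It was also higher than in PEO4 (1.97 ± 0.29, adjusted p = 4.34e-10), which had 33.8, 36.4 and 26.4 TPM. *CLDN4*, its neighbour on chromosome 7, did not pass the test in PEO6 (-0.17 ± 0.22), while *ABHD11*, the nearest gene on the other side of *CLDN3*, was at 42.4 ± 3.82 against 28.1 ± 0.957 TPM (0.57 ± 0.24, adjusted p = 0.0382). *CLDN6* was called (3.61 ± 1.41, adjusted p = 0.0280) from 58 counts against 5, but 1 PEO6 library lay within the range of PEO1, and without replicate 2 or replicate 3 the adjusted p was 0.457 and 0.418. *CLDN1* fell by 0.66 on the log2 scale (SE 0.21) and *CLDN16* rose by 0.91 (SE 0.28), and the libraries overlapped in *CLDN1*. Without replicate 2 neither *CLDN1* nor *CLDN6* was called, and without replicate 3 neither these nor *CLDN16*. Outside the 10 genes, *CLDN8*, a claudin of the distal nephron and gut, was at 31.1 ± 2.68 TPM in PEO6, 3.48 ± 1.03 in PEO4 and 0.414 ± 0.195 in PEO1 (6.28 ± 0.35 against PEO1, adjusted p = 4.44e-71). PEO6 against PEO4 had 4 of 9 claudins called, *CLDN1* and *CLDN3* higher and *CLDN9* and *CLDN11* lower, beside 18.2% of all genes tested (9.86% higher and 8.33% lower). Without replicate 1 the count was 2, since *CLDN1* and *CLDN9* were not called, and without replicate 2 it was 1, *CLDN3*. PEO4 and PEO6 were set against the same PEO1 libraries.

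Of the EPCAM and claudin-7 partners, 0 of 9 tested were higher and 2 lower in PEO4, and 2 of 10 were higher and 2 lower in PEO6. Over all genes tested 16.6% were higher and 16.7% lower in PEO4, and 21.2% and 20.3% in PEO6. Nothing is read from the list counts of these 2 lines. *SPINT1* was lower in both (-0.76 ± 0.20 in PEO4 and -1.07 ± 0.23 in PEO6). Of 19 scaffold and polarity genes, 3 were higher and 7 lower in PEO4, and 4 were higher and 8 lower in PEO6. Of 12 adherens junction and desmosome genes, 3 were higher and 3 lower in PEO4, and 1 was higher and 6 lower in PEO6. The membrane proteins of the tight junction other than claudins gave 2 higher and 3 lower of 12 in PEO4, and 2 higher and 2 lower of 10 in PEO6. *TJP1* (ZO-1), the scaffold that anchors claudins to actin, was lower in both lines, at 119 ± 36.1 TPM in PEO1, 45.6 ± 8.46 in PEO4 (-1.31 ± 0.19, adjusted p = 9.45e-11, DESeq2) and 34.9 ± 13.7 in PEO6 (-1.80 ± 0.23, adjusted p = 3.31e-13). *CXADR*, a junctional adhesion receptor, was higher in both (7.74 ± 1.71 TPM in PEO1, 32.2 ± 1.64 in PEO4 and 24.1 ± 4.18 in PEO6). *EHF* was at 25.5 ± 4.65 TPM in PEO1, 0.536 ± 0.246 in PEO4 and 87.9 ± 28.3 in PEO6, and P-cadherin (*CDH3*) fell in both, from 70.1 ± 8.12 TPM to 5.76 ± 1.65 and 6.05 ± 1.40 TPM. In the OVCAR3 ResB, OVCAR4 ResA and OVCAR4 ResB comparisons with their parents, 2, 0 and 5 of 9 partners were called, the 5 in OVCAR4 ResB all lower. The shares of all genes tested that were called were 7.67%, 11.9% and 17.9%, with 8.77% lower in OVCAR4 ResB.

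Claudin calls over the resistant and sensitive pairs went in both directions. In the 6 pairs without OVCAR3 ResA, 60 combinations of gene and pair gave 14 higher, 9 lower, 33 not called and 4 with no adjusted p, and 4 of the 10 genes (*CLDN1*, *CLDN7*, *CLDN11* and *CLDN16*) had calls of both directions among the pairs. Of the 14 higher calls, 7 were in PEA2 against PEA1. The share of all genes tested that were called in these pairs ran from 7.67% (OVCAR3 ResB) to 47.0% (PEA2). A test with the line as the unit, on counts summed per line with family as a covariate and without OVCAR3 ResA (10 lines), called 0 of 10 claudins as different between resistant and sensitive lines, by DESeq2 and by edgeR, and 0 had an unadjusted p under 0.05. Of all genes, 0.288% were called, and 1394 had an unadjusted p under 0.05 by DESeq2. The estimates had wide errors, such as 0.81 ± 0.78 (log2, SE) for *CLDN6*, 0.45 ± 1.09 for *CLDN7* and -1.38 ± 1.33 for *CLDN10*, so a shared change of such a size was not detectable with 10 lines. The resistant-sensitive difference itself differed between the 6 pairs for 10 of 10 claudins (DESeq2 likelihood ratio test), beside 64.8% of all genes tested, with the smallest adjusted p for *CLDN7* (6.26e-233) and the largest for *CLDN9* (3.38e-05).

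Across the 11 line means, the levels of *CLDN4* and *CLDN7* ran together (Pearson r = 0.965 on log2(TPM + 1), given as a description, since lines of a family share their origin and PEA1 alone is near 0 in both). The other pairs of the set were looser, from 0.732 for *CLDN3* with *CLDN7* to -0.846 for *CLDN9* with *CLDN11*. *CLDN6* with *CLDN9*, despite their 206-base spacing, was at -0.100. Of 16065 genes compared, those whose line means were most like *CLDN6* were *ATE1-AS1* (r = 0.953), *NFKBIA* (0.917), *MARCH3* (0.902), *FTSJ2* (0.899) and *MAP3K7CL* (0.898). These r include OVCAR3 ResA, whose loss of *CLDN6* chose the set, and no r without that line is given. Low values of these genes in OVCAR3 ResA are thus part of how they were picked. *ATE1-AS1* was a low transcript, with a highest line mean of 1.11 TPM. *NFKBIA*, which encodes the NF-kB inhibitor, was at 129 ± 17.3 TPM in OVCAR3, 49.7 ± 5.80 in OVCAR3 ResA and 136 ± 18.7 in OVCAR3 ResB, and *MARCH3*, a ubiquitin ligase of membrane traffic, at 14.3 ± 0.981, 0.497 ± 0.0484 and 26.8 ± 9.30 TPM. *CLDN4* and *CLDN7* shared the membrane protein *TMEM125* as their nearest gene (0.990 and 0.976), and *EPCAM* came next for *CLDN7* (0.975). PEA1 alone was low in these genes too. *TMEM125* was at 0.0864 TPM in PEA1 and 10.9 to 19.6 TPM in the other lines, and *EPCAM* at 14 and 530 to 800 TPM. The r without PEA1 was not computed, so these values do not show that the genes ran together among the other lines. *CLDN3* was nearest to the simple epithelial keratins *KRT8* (0.911) and *KRT18* (0.889), and *CLDN11* to *SIRPB1* (0.991) and to *INHBA* (0.982), an activin subunit. The nearest genes of the others were *SUN2* and *PTX3* for *CLDN1* (0.949 and 0.944), *KIAA2013* and *DLX3* for *CLDN9*, *LOC101927308* and *LMO3* for *CLDN10*, *SYNE3* and *NFE2L2* for *CLDN12*, and *DDX11L2* and *CIC* for *CLDN16*, with r from 0.926 to 0.962. Of these, *LOC101927308*, *SYNE3* and *DDX11L2* were low, with highest line means of 1.39, 1.39 and 2.52 TPM. The genes named for *CLDN6* changed with the scale, and 2 of the 5 were also among its nearest 5 on normalised counts.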

How the data were processed

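mRNA libraries (poly(A) selection, KAPA mRNA HyperPrep) of 33 samples were processed by the authors with nf-core/rnaseq against GRCh38, with salmon for quantification. The submitters' processing notes also name DRAGEN, which the study's methods give for the conversion to FASTQ. The deposited gene tables hold estimated counts, 88.4% of them whole numbers, and TPM, which the authors computed as a length-corrected share of the transcripts of a library. Estimated counts were rounded and tested over all 29744 genes with DESeq2 1.42.0 in R 4.3.3 (Wald test, line with replicate number as block, 6 libraries per comparison, no filter), as in the study's methods, at a Benjamini-Hochberg adjusted p of 0.05. Values after ± are SD over 3 libraries for TPM and SE for log2 fold changes, which are given as the first line named minus the second. Depth was 18058985 to 43394009 counts per library, and 3 counts over a line were taken as the floor. With 1 to 3 counts in a line the ratio of size-factor scaled counts is given with an exact Poisson interval at 95%, and with 9 or fewer in both lines no fold is given.

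Resistance across lines was tested on counts summed per line (10 lines, family and role), and differences between 6 pairs with a likelihood ratio test, both without OVCAR3 ResA. Alternatives were edgeR 4.0.16, limma 3.58.1 on log2(TPM + pseudocount), a count filter, no replicate block, a joint fit of 33 libraries and leaving out each replicate. The fits were tested on simulated counts. Same-numbered libraries deviated together (all 3 correlations above 0.1) in 2 of 10 comparisons: OVCAR3 ResA against OVCAR3 (0.807, 0.332 and 0.664) and OVCAR4 ResB against OVCAR4 ResA (0.830, 0.736 and 0.705). The labels do not say what a replicate number shares.

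The members, gene lists and tests were chosen with earlier results of these data known. Claudins are named throughout, with fold and test where called at a log2 change of at least 1, or the largest called where fewer than 3 were. Up to 3 called genes per list and comparison, of at least 10 TPM in a line and largest change, are named, with the 5 genes nearest on each side of a claudin, the 5 most like *CLDN6* and 2 most like each other claudin. Other genes named were chosen after their values were seen. Promoter windows are from RefSeq (GRCh38.p14), and *CLDN9* was not matched there. One gene of the partner list enters its counts and is not reported here.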

Additional observations from a re-analysis of the deposited data

Results flagged for a closer look

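The resistant-sensitive change differed between the 6 pairs that left out OVCAR3 ResA for each of the 10 claudins, by DESeq2's likelihood ratio test over 30 libraries, beside 64.8% of all genes tested. The adjusted p was 6.26e-233 for *CLDN7*, 1.58e-128 for *CLDN4*, 2.21e-62 for *CLDN11*, 1.2e-51 for *CLDN1* and 1.33e-36 for *CLDN10*. It was 3.49e-35 for *CLDN16*, 8.92e-31 for *CLDN3*, 2.88e-11 for *CLDN12*, 4.37e-06 for *CLDN6* and 3.38e-05 for *CLDN9*. The log2 fold change of *CLDN7* was 11.76 ± 0.62 in PEA2 and -1.05 ± 0.31 in OVCAR4 ResB, and that of *CLDN11* was 1.5 ± 0.24 in PEA2 and -5.11 ± 0.27 in PEO6. *CLDN16* fell in PEA2 (-4.12 ± 0.27) and rose in PEO4 (1.27 ± 0.18), while *CLDN1* rose in PEA2 (3.69 ± 0.21) and fell in PEO4 (-1.77 ± 0.17). The *CLDN6* difference was the closest to the threshold when a replicate was left out, with an adjusted p of 0.0401 without replicate 2.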

How the results depend on the processing

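Apart from the values that chose the set, 30 called claudin results had a fold of at least 1 (log2). Of these, 8 were called under every alternative run, and of 294 alternative values 52 lost the call and 0 reversed. Of the 52, 22 arose under limma on log2(TPM + 1) with no filter on low values and 9 without replicate 2. The claudin counts moved as follows, and the cause was not tested. In OVCAR3 ResB against OVCAR3 the 3 calls became 0 under edgeR and under limma with a pseudocount of 1 or 0.1, and with no filter also 0, and 0 to 3 with a replicate left out. In OVCAR4 ResA against OVCAR4 the 1 call became 0 under the 3 limma settings and 1 to 4 with a replicate left out. In OVCAR4 ResB against OVCAR4 the 2 calls became 1 under edgeR and under limma with either pseudocount, 0 with no filter, 4 in the joint fit of 33 libraries and 1 to 4 with a replicate left out. With limma and no filter, PEA2 against PEA1 kept 5 of 8 as a count, PEO4 against PEO1 1 of 4, PEO6 against PEO1 2 of 5, OVCAR3 ResB against ResA (without *CLDN6*) 0 of 3, which was 5 in the joint fit, OVCAR4 ResB against ResA 1 of 5 and PEO6 against PEO4 0 of 4. With a replicate left out the counts ran from 2 to 5 in PEO6 against PEO1, 2 to 4 in OVCAR4 ResB against ResA and 1 to 5 in PEO6 against PEO4. Without the replicate block OVCAR4 ResB against ResA had 2 calls in place of 5, while each of the 30 results kept its side of the threshold, and *CLDN1* in PEO6 against PEO1 (-0.66) did not (adjusted p = 0.0664, DESeq2). Calls over the fixed lists went from 349 to 95 with limma and no filter, and over neighbouring genes from 180 to 37, with 110 to 179 when a replicate was left out. Of 23 genes named as most like a claudin, 14 were also named on median-of-ratios counts. Claudins at or near 0 counts are limited by depth to a floor of 3 counts over a line.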

Other observations

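Of the claudin genes outside the set, 2 stood out in the PEO family and were chosen after their values were seen. *CLDN8* rose from 0.634, 0.345 and 0.263 TPM in PEO1 to 32.0, 33.2 and 28.1 TPM in PEO6 (log2 fold change 6.28 ± 0.35, adjusted p = 4.44e-71, DESeq2), with 4.50, 3.49 and 2.45 TPM in PEO4 between them. It was not confined to this family. OVCAR3 ResA read 3.49, 2.81 and 2.87 TPM of *CLDN8*, against 0.0230, 0.0662 and 0.0333 TPM in OVCAR3. *CLDN23*, a claudin of intestinal epithelium, rose from 11.1 ± 1.44 TPM in PEO1 to 17.6 ± 0.511 TPM in PEO4 (0.71 ± 0.23, adjusted p = 0.00724) and 20.8 ± 1.87 TPM in PEO6 (0.89 ± 0.25, adjusted p = 0.00132). The 10 claudins held 89.8% of claudin TPM in PEO6 and 97.4% in PEO1.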
